A study of Mus musculus with 20 samples.

Results

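The CCAAT/enhancer-binding protein (C/EBP) family genes examined here were Cebpa, Cebpb, Cebpd, Cebpe and Cebpg. Every peak whose deposited nearest gene was 1 of these 5 was followed through the time course. They held 244 of the 504887 peaks in the 10 lists, and 45 of the 88351 regions formed by merging overlapping peaks of all lists. A total of 19738 genes had an assigned peak. The peaks came from ATAC-seq, which finds open chromatin by where the transposase Tn5 can insert its adapters, on mouse ER-Hoxa9-Lys-GFP cells of strain C57BL/6 cultured with SCF conditioned medium. The name stands for an estrogen receptor fusion of the homeobox factor Hoxa9 with a green fluorescent reporter at the lysozyme gene, and all groups share both. The groups were untreated cells with estradiol (E2), called 0 h, and cells 4, 8, 12, 24, 36, 48, 72, 96 and 120 h after E2 was washed out, with 2 samples at each time. A single list was deposited for both samples of a time, so no spread between replicates and no p-value can be given. Read depth is unknown. The labels do not say whether the line is a single clone.

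C/EBP proteins are basic leucine zipper (bZIP) transcription factors that bind DNA as dimers with each other or with relatives. In the myeloid lineage, C/EBPα is needed for the step to granulocyte and monocyte progenitors, C/EBPε for late neutrophil maturation with its secondary granules, and C/EBPβ for granulopoiesis under infection or cytokine stress and for macrophage genes. C/EBPδ is an acute phase factor that is also made in maturing granulocytes, and C/EBPγ lacks a strong activation domain and acts mainly as a dimer partner. Cebpa and Cebpg are neighbours on mouse chromosome 7.

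The 120 h list held 23620 peaks and the 0 h list 55261, and the longest, at 24 h, held 62559. Counts per gene move with these lengths, so they are also given per 10000 listed peaks. The 0 h list had promoter peaks, at most 1000 bp from a transcription start, at 6 of 9 marker genes of myeloid progenitors and granulocytes, among them Mpo, Lyz2, Csf3r and Spi1. Elane, Prtn3 and Ly6g had peaks but none at the promoter. The same list also had promoter peaks at 1 of 4 T cell, 1 of 4 erythroid, 2 of 4 B cell, 1 of 4 macrophage and 3 of 3 megakaryocyte markers. Of 32851 RefSeq starts, 31.3% lay inside a 0 h peak, which is not the same measure as a promoter peak. With so few markers no cell type is read from these counts. Of the T cell markers, Tcf7 had 7 peaks, 1 of them at its promoter, while Cd3e, Cd3g and Bcl11b had no peak at all. In bulk cells, fewer cells with an open site and a weaker opening in every cell cannot be told apart. Peaks were assigned by the nearest start, which does not show the gene on which a site acts.

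Over the 5 genes together, the number of listed sites was level early, highest in the middle of the time course and lowest at its end. In the lists of 0, 4, 8, 12, 24, 36, 48, 72, 96 and 120 h, in this order, the family had 26, 26, 26, 27, 31, 33, 30, 24, 11 and 10 peaks. Per 10000 listed peaks the values were 4.70 at the start of the series, 5.53 at the maximum (36 h), 3.69 at the minimum (96 h) and 4.23 at the end, a narrower range than that of the counts. Most of the difference was in distal peaks, of which there were 6 at 120 h and 21 at 0 h, beside 4 promoter peaks at 120 h and 5 at 0 h. The whole lists were split in a similar way. They held 14652 distal peaks at 120 h and 44654 at 0 h, beside 8968 promoter peaks at 120 h and 10607 at 0 h. Within 500 bp of a start the promoter peaks numbered 4 at 120 h and 2 at 0 h, so the direction for promoter peaks turns with the distance allowed. Covered sequence was 9454 bp at 120 h and 14785 bp at 0 h. The median family peak was 925 bp wide at 120 h and 403 bp at 0 h, and over all peaks the medians were 617 bp at 120 h and 474 bp at 0 h. Late lists thus held fewer and wider peaks, in the family and in general.

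**Figure D1:**
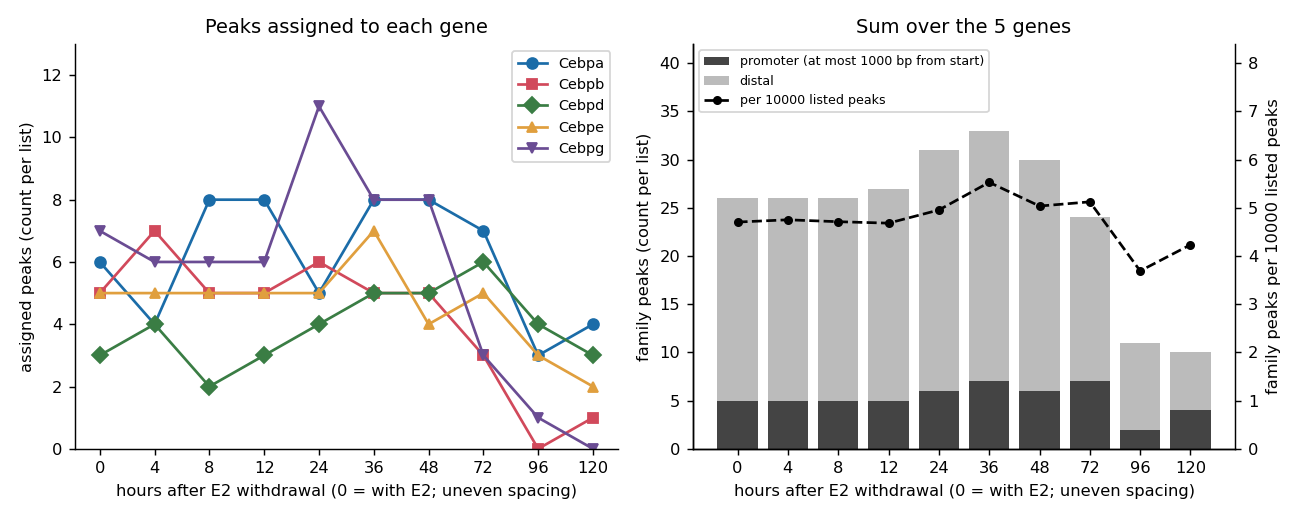
Left, peaks assigned to each of the 5 genes (y axis, count per list) by hours after E2 withdrawal (x axis); right, their sum as promoter and distal peaks (stacked bars, left axis) and the sum per 10000 listed peaks (dashed line, right axis). The sum is highest at 36 h with 33 peaks and lowest at 120 h with 10, while the value per 10000 lies between 3.69 and 5.53.

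The genes did not share a course. Cebpa had 6, 4, 8, 8, 5, 8, 8, 7, 3 and 4 peaks in the 10 lists, in time order. Cebpe had 5, 5, 5, 5, 5, 7, 4, 5, 3 and 2. Both kept listed sites to the end of the time course. Cebpb had 5, 7, 5, 5, 6, 5, 5, 3, 0 and 1 peaks. Cebpg had 7, 6, 6, 6, 11, 8, 8, 3, 1 and 0 peaks, with its maximum in the 24 h list. These were the family genes with the fewest sites at the end. Cebpd had 3, 4, 2, 3, 4, 5, 5, 6, 4 and 3 peaks and was the 1 family gene with as many at 120 h as at 0 h. The order at 120 h was Cebpa, Cebpd, Cebpe, Cebpb and Cebpg, and at 0 h it was Cebpg, Cebpa, Cebpb level with Cebpe, and Cebpd. Neighbours in these orders differed by at most 2 peaks, a difference that cannot be judged without replicate lists. Fewer peaks at 120 h than at 0 h were listed for 4 of the 5 genes, where 71.4% of the 18094 genes with a peak at either time had fewer and 7.82% had more, so the family count lies near that background. It also depended on list length. When only the 23620 widest peaks of each list were kept, the 120 h count minus the 0 h count was 1 for Cebpa, -1 for Cebpb, 2 for Cebpd, 0 for Cebpe and -2 for Cebpg.

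At the transcription starts the genes differed most plainly. The start of Cebpe lay in a peak at 24, 36, 48, 72, 96 and 120 h and in none at 0, 4, 8 or 12 h. The start of Cebpg lay in a peak in every list from 0 to 48 h and in none at 72, 96 or 120 h. The start of Cebpa lay in a peak at 8, 36, 48, 72 and 120 h and in none at 0, 4, 12, 24 or 96 h. The start of Cebpb lay in a peak in every list but those of 36 and 96 h, and that of Cebpd in every list but that of 8 h. By list, 3, 3, 3, 3, 4, 4, 5, 4, 2 and 4 of the 5 starts lay in a peak. The list of 48 h was the only one with all 5. Over all 32851 RefSeq starts the share inside a peak was nearly flat, with a maximum of 32.1% (24 h) and a minimum of 29.2% (120 h). Of the family starts outside a peak at 96 h, those of Cebpa and Cebpb were inside one at 72 and 120 h. Such single gaps are not read as closing, for the reason given below with Cebpd. Of the 3 family starts in a peak at 0 h, Cebpg alone was outside one at 120 h, where 19.1% of 10275 RefSeq starts were. Cebpa and Cebpe were outside a peak at 0 h and inside one at 120 h, where 5.67% of 22576 RefSeq starts were. With 2 genes on that side and 3 on the other, nothing is read from these shares.

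**Figure D2:**
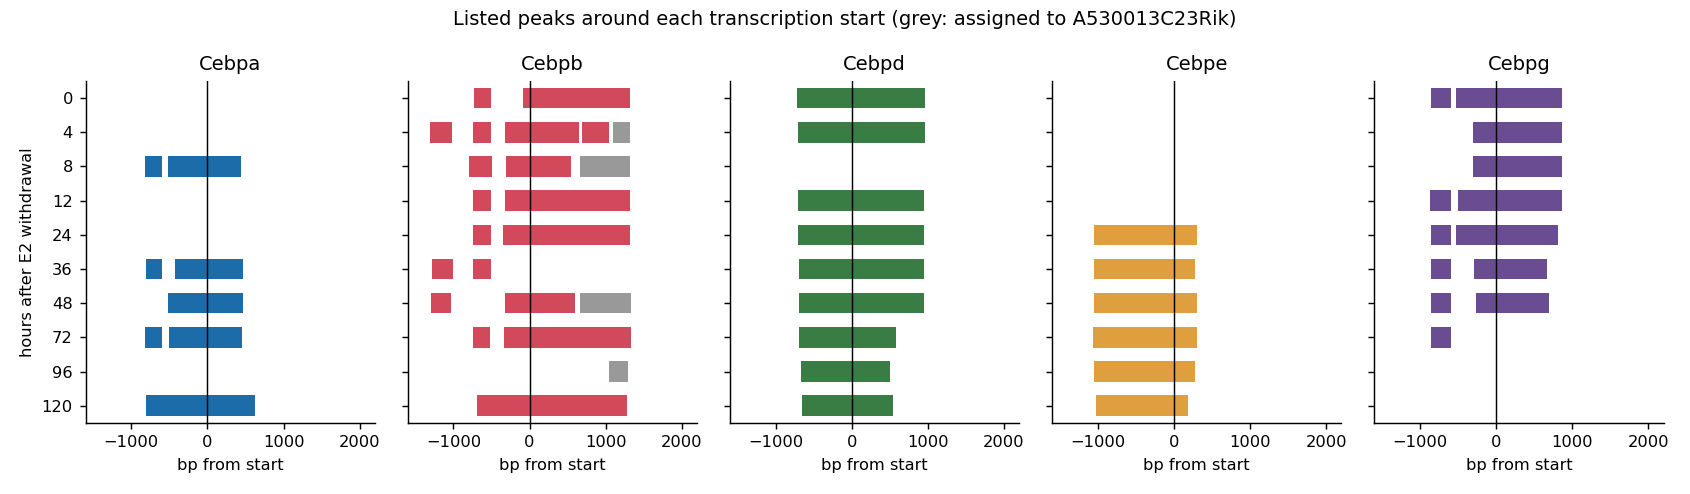
Listed peaks around the start of each gene (x axis, bp along the direction of transcription, start at 0), with a row for each list from 0 h at the top to 120 h at the bottom (y axis, hours after E2 withdrawal); grey bars are peaks assigned to the noncoding gene A530013C23Rik. The Cebpe start is covered from 24 h on, the Cebpg start from 0 to 48 h, and the Cebpa start at 8, 36, 48, 72 and 120 h.

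Cebpe, on chromosome 14 (54710363 to 54712174 in mm10, minus strand), had the most uniform start interval. Its peaks over the start were 1353, 1318, 1348, 1360, 1326 and 1216 bp wide at 24, 36, 48, 72, 96 and 120 h. They reached 1025 to 1057 bp upstream of the start and 190 to 307 bp downstream of it. The merged region (54711867 to 54713231) was gained, which here means missing from the lists of 0, 4 and 8 h and found in those of 72, 96 and 120 h. No narrower peak lay there before 24 h, so the interval entered the lists at nearly its full width. Farther upstream, at -2059 bp (54714005 to 54714462), a peak of 267 to 458 bp was listed at 0, 4, 8, 12, 24, 36 and 72 h.

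Cebpg, on chromosome 7 (35046422 to 35056566, minus strand), had the opposite course. The peak over its start was 1388, 1175, 1176, 1368, 1329, 952 and 967 bp wide in the lists of 0, 4, 8, 12, 24, 36 and 48 h. The merged region (35055694 to 35057089), annotated to the 5' UTR in exon 1 of 2, was lost, which here means found in the lists of 0, 4 and 8 h and missing from those of 72, 96 and 120 h. A narrow peak at -729 bp (35057155 to 35057434), 257 to 278 bp wide, was listed at 0, 12, 24, 36, 48 and 72 h and so was last seen 1 list later than the wider one. No promoter peak of Cebpg was listed at 96 or 120 h. The start overlaps another RefSeq gene model, Gm45095 (35055483 to 35057645), so the interval cannot be credited to Cebpg alone.

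Cebpd, on chromosome 16 (15887286 to 15889545, plus strand), had a start interval that was nearly constant up to 48 h and shorter after it. Its width was 1652 to 1672 bp at 0, 4, 12, 24, 36 and 48 h, then 1281, 1177 and 1203 bp in the lists of 72, 96 and 120 h. The difference lay on the side of the gene body. The interval ended 950 to 961 bp downstream of the start up to 48 h, and 584, 506 and 547 bp downstream at 72, 96 and 120 h, while its upstream edge stayed 655 to 712 bp from the start. At 8 h no peak was listed there, between lists with peaks of 1672 bp at 4 h and 1661 bp at 12 h. Single gaps of this kind were frequent in the authors' lists. Where a region was present in both neighbouring lists, it was absent from the list between them in 8.59% of cases over all regions. Among promoter regions at least 1000 bp wide the share was 8.22%, and among family regions it was 18 of 132 cases (13.6%). A single missing list is therefore not read here as closing.

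Cebpb, on chromosome 2 (167688915 to 167690432, plus strand), had a start interval that reached across most of its single exon. The peak over the start was 1409, 970, 853, 1644, 1668, 924, 1661 and 1973 bp wide in the lists of 0, 4, 8, 12, 24, 48, 72 and 120 h. At 4, 8 and 48 h, where it was narrow, further peaks of 223 to 673 bp lay farther along the exon without reaching its end, most of them assigned to A530013C23Rik, a noncoding gene that begins just downstream. The merged region (167688118 to 167690249) was present in all 10 lists. At 36 h it held only a 229 bp peak at -736 to -508 bp, and at 96 h only a 253 bp peak assigned to A530013C23Rik, so its presence in these lists does not include the start. With single gaps filled, the starts of Cebpb and Cebpd would count as listed at all 10 times.

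Cebpa, on chromosome 7 (35119293 to 35121928, plus strand), had the least regular start. The peak over it was 961, 886, 986, 964 and 1429 bp wide in the lists of 8, 36, 48, 72 and 120 h. At 8, 36 and 72 h a further peak of 203 to 224 bp lay between -814 and -591 bp, and the 120 h interval reached from 804 bp upstream to 624 bp downstream and so spanned both. In the lists of 0, 4, 12, 24 and 96 h neither was present. Promoter sequences are given for Cebpa, Cebpg and Cebpb. They are the 250 bases before the start from RefSeq on GRCm38.p6, written 5' to 3' on the strand of the gene. The RefSeq promoter table used here held only these 3 of the 5 genes, so no sequence is given for Cebpd or Cebpe. Capitals mark matches to the motifs searched.
Cebpa, plus strand, chr7:35119043-35119292: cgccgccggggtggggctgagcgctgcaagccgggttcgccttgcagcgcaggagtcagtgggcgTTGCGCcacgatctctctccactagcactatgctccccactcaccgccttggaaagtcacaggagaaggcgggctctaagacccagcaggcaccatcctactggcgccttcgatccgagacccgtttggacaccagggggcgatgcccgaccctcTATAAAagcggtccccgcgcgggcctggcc
Cebpg, minus strand, chr7:35056567-35056816: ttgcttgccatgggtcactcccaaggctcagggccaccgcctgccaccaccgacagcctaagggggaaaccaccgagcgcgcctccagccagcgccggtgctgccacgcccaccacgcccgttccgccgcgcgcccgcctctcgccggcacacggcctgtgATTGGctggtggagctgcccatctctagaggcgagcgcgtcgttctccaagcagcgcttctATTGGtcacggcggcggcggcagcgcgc
Cebpb, plus strand, chr2:167688665-167688914: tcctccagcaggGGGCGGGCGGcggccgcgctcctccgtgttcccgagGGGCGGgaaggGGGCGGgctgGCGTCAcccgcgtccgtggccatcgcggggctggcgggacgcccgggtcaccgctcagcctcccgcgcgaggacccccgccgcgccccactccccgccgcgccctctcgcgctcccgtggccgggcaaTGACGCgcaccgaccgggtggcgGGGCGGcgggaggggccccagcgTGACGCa

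The whole Cebpa window lay in peaks at 8, 36, 48, 72 and 120 h, and 0 of its bases did in the other lists. The whole Cebpg window lay in a peak up to 48 h and 0 of its bases later. In the Cebpb window 87 bases lay in a peak at 0 h, 0 at 36 and 96 h, and all 250 in the other lists. GC content was 66.4% for Cebpa, 70.8% for Cebpg and 81.6% for Cebpb. Motifs were searched on both strands as exact letters with N for any base, and positions count back from the start. Cebpa had 1 TATA box, TATAAA, at -30 to -25, which 12.4% of the 32851 RefSeq windows of the same length hold. It also had 1 match to TTGCGC, one side of a C/EBP site, at -185 to -180, which 5.34% of windows hold. Cebpg had 2 CCAAT boxes, both read as ATTGG on the printed strand, at -89 to -85 and -28 to -24, and 33.8% of windows hold one. Cebpb had 5 matches to the GC box GGGCGG, which 32.7% of windows hold, of which those starting at -238 and -234 overlap each other. It had 3 matches to TGACGC, similar to the cyclic AMP response element, at -181 to -176 (read as GCGTCA), -53 to -48 and -7 to -2, and 6.12% of windows hold one. The motifs TTGCGC and TGACGC were chosen after the sequences were seen. The longer C/EBP motif TTGCNNAA, the response element TGACGTNA and the PU.1 core GAGGAAG, held by 9.56%, 2.52% and 10.6% of windows, had 0 matches in these 3 windows. These are descriptions of the letters and not of binding.

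Away from the starts, 1 site near each of Cebpa, Cebpd and Cebpe was in all 10 lists. Downstream of Cebpa, the region at 8599 bp (35127669 to 35128116), on a MIR element in each list, was 265 to 448 bp wide. Beside it, the region at 7820 bp (35126747 to 35127588) was listed at all times but 8 and 12 h and was 439 to 700 bp wide. Downstream of Cebpe, the region at 5751 bp (54705651 to 54707204) held a single peak of 669 bp at 0 h and of 668 bp at 4 h. From 8 to 96 h a further peak of 432 to 684 bp lay beside it, on the side toward Cebpe, and at 120 h a single peak of 1339 bp spanned both places. The listed sequence there was thus wider late than early. Just past the end of Cebpd, the region at 2884 bp (15889976 to 15890364) was 274 to 389 bp wide. With the Cebpb start region these were 4 of the 45 family regions, where 13.8% of all merged regions were present in all lists.

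Family regions were gained in 2 cases and lost in 7, where 2.38% and 12.5% of all regions were. A further 5 were transient, which here means missing from the lists of 0, 4, 96 and 120 h but found in neighbouring lists between 12 and 72 h, where 9.65% of all regions were. The other 27 had mixed courses. In 22 of the 45 the presence was interrupted at least 1 time, a larger share than the 33.3% over all regions. This difference was not tested.

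**Figure D3:**
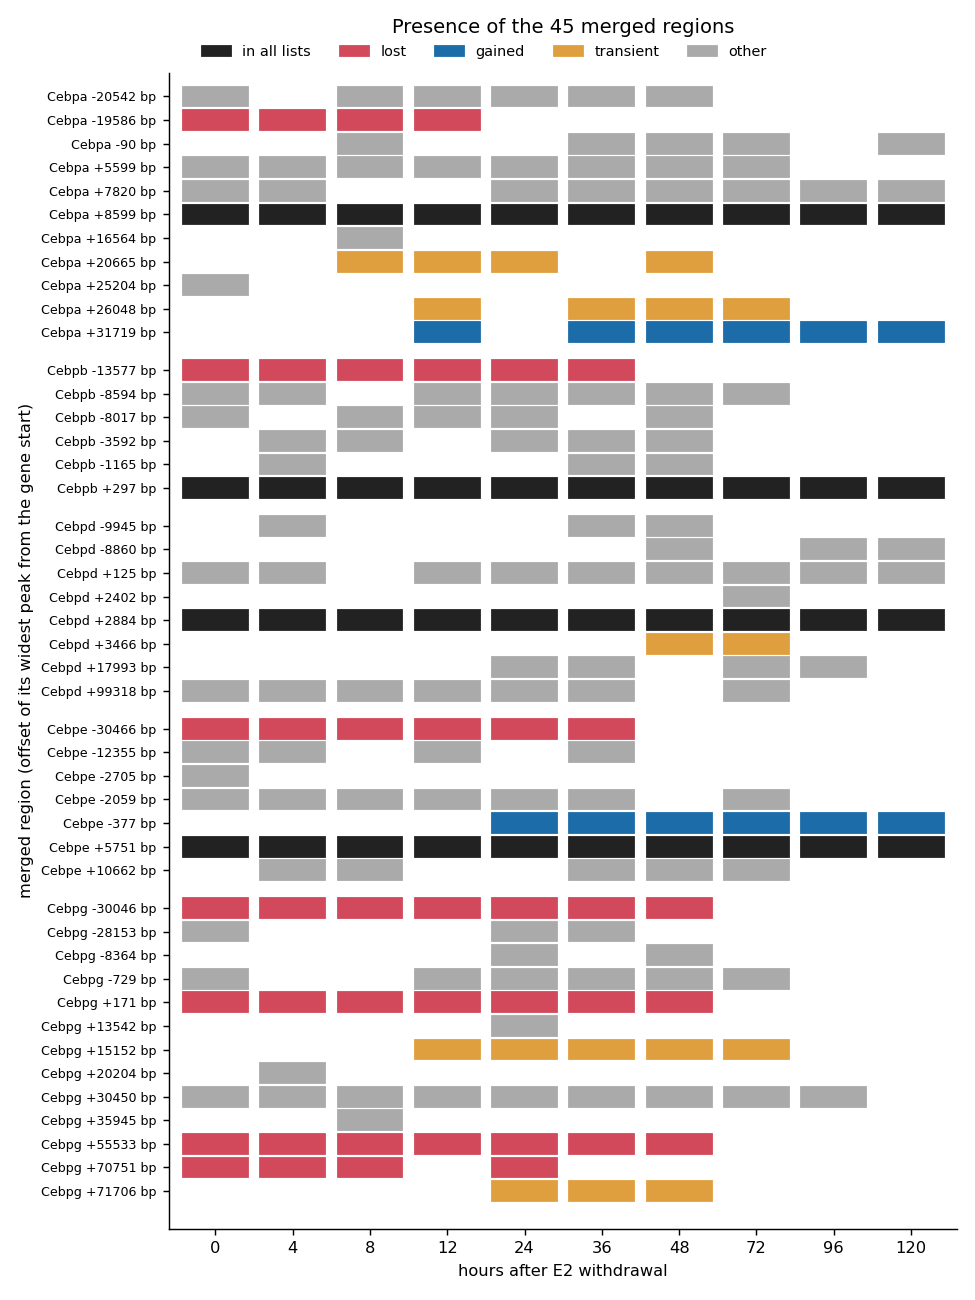
Presence of each of the 45 merged regions (rows, by gene and offset of the widest peak from the gene start in bp) in each list (x axis, hours after E2 withdrawal), coloured by class. The 4 regions in black are present in all 10 lists, and no region of Cebpg is present at 120 h.

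The 2 gained regions were the Cebpe promoter and an intergenic region 31719 bp downstream of the Cebpa start (35150711 to 35151343). The Cebpa region was listed at 12, 36, 48, 72, 96 and 120 h with widths of 325, 403, 483, 604, 462 and 540 bp. Of the 7 lost regions, 4 belonged to Cebpg. Besides its start region these were a site at -30046 bp (35086296 to 35086964) and 2 sites in intron 9 of Pepd, a peptidase gene. That at -30046 bp was listed up to 48 h and annotated as intergenic. It lies within the RefSeq noncoding gene model Gm35611 (35086191 to 35096660). The Pepd sites lay at 55533 bp (35000902 to 35001151), listed up to 48 h, and at 70751 bp (34985673 to 34985957), listed at 0, 4, 8 and 24 h but not at 12 h. Cebpa lost an intergenic site at -19586 bp (35099540 to 35099885), listed at 0, 4, 8 and 12 h and 307 to 336 bp wide. Cebpb lost an intergenic site at -13577 bp (167675207 to 167675469), listed up to 36 h. Cebpe lost a site at -30466 bp (54742399 to 54742874) in intron 3 of Slc7a8, an amino acid transporter gene, listed up to 36 h. Cebpd lost none.

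The remaining upstream sites of Cebpb were also missing at 96 and 120 h without meeting the definition of lost. This is a common course, as 77.5% of all distal 0 h peaks had no overlapping peak at 120 h. The site at -8594 bp was last listed at 72 h, and those at -8017, -3592 and -1165 bp at 48 h, so the start region was the only 1 of the 6 Cebpb regions present at 120 h. Among the 13 regions of Cebpg the last to be listed was that at 30450 bp, in intron 11 of Pepd, which was present in every list from 0 to 96 h. Transient sites of Cebpg lay in introns of Pepd at 15152 bp, listed from 12 to 72 h, and at 71706 bp, listed from 24 to 48 h with up to 843 bp. Transient sites of Cebpa lay downstream at 20665 bp, listed at 8, 12, 24 and 48 h, and at 26048 bp, listed at 12, 36, 48 and 72 h. Cebpd had a transient site at 3466 bp in intron 18 of Spidr, a DNA repair gene, listed at 48 and 72 h. By the annotation of its widest peak, 5 family regions lay on a repeat, 3 of them of Cebpd, where 22.3% of all regions did. The Cebpd region at -9945 bp was annotated to an MMVL30 fragment in every list that held it, those of 4, 36 and 48 h. That at -8860 bp was annotated to an RMER6A element at 48 and 96 h and to G-rich low-complexity sequence at 120 h. That at 99318 bp was annotated to an MTD element only at 72 h, when its peak was widest with 724 bp, and to intron 7 of Spidr from 0 to 36 h. The Cebpd region at 17993 bp, whose widest peak was annotated to intron 13 of Spidr, had peaks on an ID_B1 element at 24 and 72 h.

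The locus shared by Cebpg and Cebpa, whose starts are 62727 bp apart, differed between its sides. Upstream of the Cebpa start, where Cebpg lies, 15 regions at any distance were assigned to either gene. In the 10 lists 9, 7, 8, 8, 12, 9, 9, 3, 1 and 0 of these were present. Within 100 kb of the Cebpa start, the limit also used downstream, there were 12, of which 7, 5, 6, 7, 9, 7, 7, 3, 1 and 0 were present. The other side, counted from the Cebpa start region at -90 bp downstream, held 16 regions within 100 kb. They were assigned to Cebpa or to Slc7a10, the next amino acid transporter gene. Of these 9, 8, 9, 12, 8, 10, 12, 10, 7 and 8 were present. The 7 assigned to Slc7a10 stand outside the 45. Of the 8 regions listed at 120 h, 4 were assigned to Slc7a10. For scale, the 120 h list held 23620 peaks, beside 88351 merged regions over all lists. Among the 7 regions of Slc7a10, that 37547 bp downstream of the Cebpa start (35156290 to 35157315) was present in all 10 lists. An enhancer of Cebpa active in myeloid progenitors is known at about this place in mice. The regions at 50204 and 52798 bp were also present in all 10 lists, and that at 47886 bp was gained. The division into sides was chosen after the values were seen and carries no test.

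**Figure D4:**
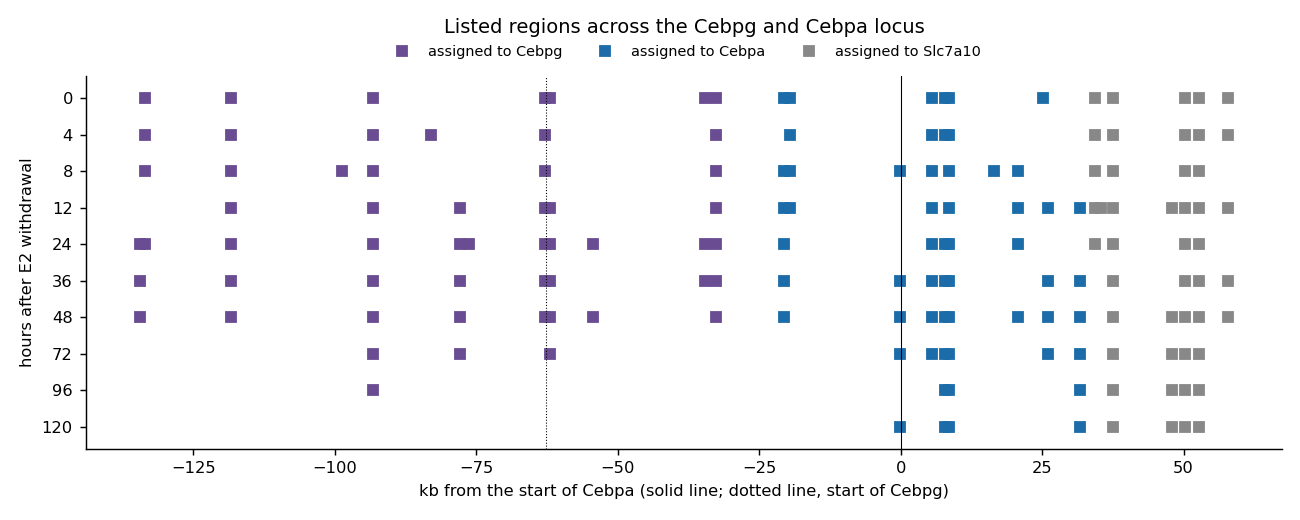
Regions listed across the Cebpg and Cebpa locus (x axis, kb from the Cebpa start) in each list (y axis, hours after E2 withdrawal, 0 h at the top), coloured by the gene to which they are assigned. At 120 h 0 of 15 regions upstream of the Cebpa start are listed, counted at any distance and assigned to Cebpg or Cebpa. From the start region at -90 bp downstream within 100 kb, 8 of 16 are listed, 4 of them assigned to Slc7a10.

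The next question was whether family sites listed with E2 were still listed later. Of the 26 family peaks at 0 h, 7 were overlapped by a 120 h peak (26.9%, 95% Wilson interval 13.7 to 46.1%), against 32.6% of all 0 h peaks. The interval covers counting error only. Of the 21 distal family peaks, 4 were overlapped at 120 h (19.0%, 7.67 to 40.0%) and 17 were not, where 77.5% of all distal 0 h peaks were not. At 48 h 11 of the 21 were overlapped (52.4%, 32.4 to 71.7%), against 70.5% of all distal peaks. At 72 h 9 of the 21 were (42.9%, 24.5 to 63.5%), against 54.3%. Of the 5 promoter peaks, 3 were overlapped at 120 h, all at Cebpb and Cebpd (60.0%, 23.1 to 88.2%), against 75.0%. At 96 h 2 were (40.0%, 11.8 to 76.9%), against 79.3%. The Cebpb peak among these 2 was overlapped only by a 253 bp peak assigned to A530013C23Rik, 1043 to 1295 bp downstream of the Cebpb start. The share of all promoter peaks at 96 h thus lay outside the family interval, but this is 1 of many intervals, it rests on 5 peaks at 3 genes, and at 120 h the share lay inside. In the 120 h list, 4 of 10 family peaks had no 0 h counterpart (40.0%, 16.8 to 68.7%), against 25.03% of all. They were the start peaks of Cebpa and Cebpe, the Cebpa peak at 31780 bp and the Cebpd peak at -8886 bp. With so few peaks no difference between the family and the whole lists is read from these shares.

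**Figure D5:**
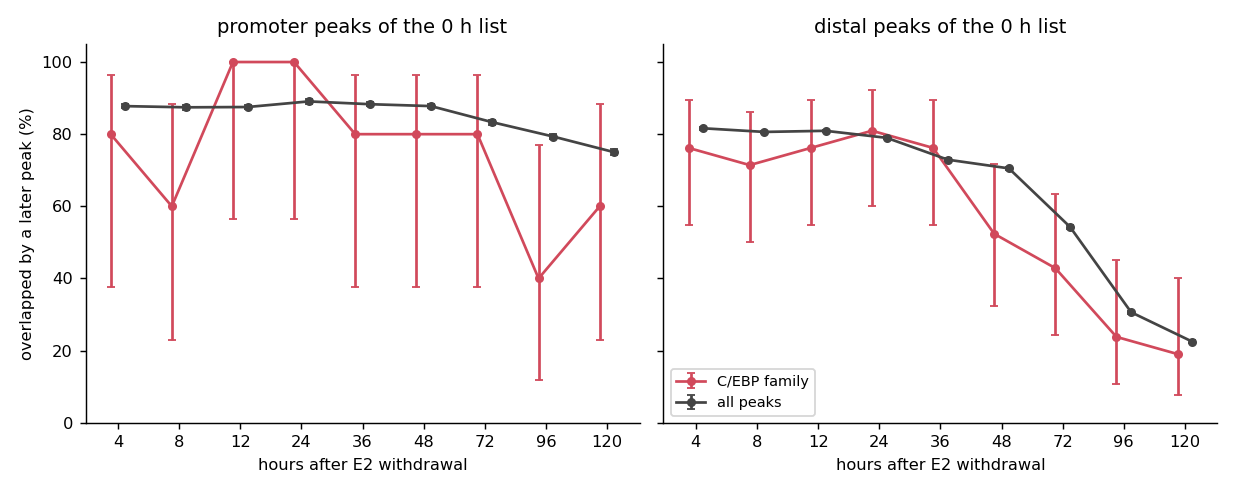
Share of 0 h peaks overlapped by at least 1 bp by a peak of each later list (y axis, %) by hours after E2 withdrawal (x axis), with promoter peaks left and distal peaks right, for the C/EBP family and for all peaks; bars are 95% Wilson intervals. At 120 h the family interval for distal peaks runs from 7.67 to 40.0%, around the 22.5% of all distal peaks.

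Among 30 regulators and dimer partners of C/EBP proteins, 20 had fewer peaks at 120 h than at 0 h, 2 had more and 8 as many. Over all genes 71.4% had fewer and 7.82% had more, so the list's count of genes with fewer peaks is near the background. The median log2 ratio of 120 h to 0 h, with 0.5 added to each count, was -0.74 in the list and -1.04 over all genes. Of the bZIP relatives, Batf had 5 peaks at 120 h and 8 at 0 h, Batf3 had 4 at 120 h and 7 at 0 h, Hlf had 2 at 120 h and 6 at 0 h, and the repressor Nfil3 had 2 at 120 h and 13 at 0 h. Other bZIP genes differed by fewer peaks, though not always by a smaller ratio: Tef had 2 at 120 h and 4 at 0 h. Ddit3 had 1, Atf3 3, Batf2 2 and Dbp 3 at both times. Fbxw7, a ubiquitin ligase subunit that targets C/EBP proteins, had 2 at 120 h and 13 at 0 h. Trib2, a pseudokinase that promotes breakdown of C/EBPα, had 4 at 120 h and 16 at 0 h, whereas its relative Trib1 had 8 at both times. Trib1, those 5 bZIP genes and the 2 genes with more peaks, Klf5 and the bZIP gene Atf4 with 1 at 120 h and 0 at 0 h, were named after their values were seen. Among transcription factors of progenitors, Runx1 had 13 at 120 h and 27 at 0 h, Myb 1 at 120 h and 7 at 0 h, Gata2 2 at 120 h and 6 at 0 h, and Gfi1 2 at 120 h and 8 at 0 h. Klf4 had 10 at 120 h and 20 at 0 h, Irf8, a monocyte lineage factor, 1 at 120 h and 18 at 0 h, and Id1 2 at 120 h and 5 at 0 h.

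Of 27 genes listed here as C/EBP targets in granulocytes, 4 are also in the list of regulators. Among the 27, 11 had more peaks at 120 h than at 0 h, 13 had fewer and 3 as many, where 7.82% of all genes had more and 71.4% had fewer. Peaks of the 27 genes summed to 56 at 120 h and 69 at 0 h, and the median log2 ratio was 0.0 in the list and -1.04 over all genes. This list, like that of the regulators, was drawn up with earlier results of these data known. Its difference from all genes is therefore not independent support. Prtn3 and Ctsg, serine proteases of primary granules, had 4 peaks in every list from 0 to 72 h, and at 120 h both had 0. Of the other primary granule genes, Mpo had 2 at 120 h and 4 at 0 h, Elane had 0 at 120 h and 1 at 0 h, and Bpi had 1 at both times. Ltf, the lactoferrin gene of secondary granules, had 4 at 120 h and 0 at 0 h, and Cybb, the large subunit of the phagocyte oxidase, had 3 at 120 h and 0 at 0 h. Ltf had 3 at 72 and 96 h, and Cybb had 4. The granule collagenase gene Mmp8 had 1 at 120 h and 3 at 0 h, and the gelatinase gene Mmp9 had 2 at both times. Mpo, Elane, Bpi, Mmp8 and Mmp9 were named after their values were seen. Ebf1, a B cell factor also used here as a B cell marker, had 2 at 120 h and 7 at 0 h and is among the 13 with fewer. The other genes with more peaks at 120 h, namely Camp, Ngp, Lcn2, Itgam, Cd14, Cd177, Chil3, S100a8 and Arg2, had 1 or 2 more.

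Over the 10 lists, the peak counts of other genes were compared with those of each family gene by Pearson's r, among 7753 genes with at least 4 peaks in some list. The 3 genes most like Cebpa were Psmc3 (r = 0.93), Cyp11a1 (0.92) and Rptor (0.92). Those most like Cebpe were Asb8 (0.98), Nsd3 (0.96) and Hnrnpl (0.96), and those most like Cebpb were Mir6995 (0.99), Ybey (0.99) and 1110004F10Rik (0.98). For Cebpd they were Zswim6 (0.96), Cenpw (0.92) and Rad17 (0.92), and for Cebpg Egf, Nfia and Apmap (0.99 each). All counts share the list lengths, and small whole numbers over 10 lists match readily, so these values describe the courses only.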

How the data were processed

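ATAC-seq peak lists of cultured mouse cells were used, 1 for each of 10 times, each belonging to 2 samples. How the samples were combined, the peak threshold and any shift for Tn5 are not given in the sources used here. Peaks were annotated with HOMER against mm10, per the file headers, while the submitters' processing notes name mm9, BWA, MACS2 2.0 and STAR 2.5, with no role. Starts of the 5 genes recovered from the deposited distances lay within 1 bp of RefSeq GRCm38.p6, so coordinates are given as mm10, counted from 1. The deposited peak score was 0 for every peak, so no list could be made stricter by score. Start, end and distance to the nearest start were used as deposited.

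Peaks sharing at least 1 bp across lists were chained into merged regions. A peak was promoter when at most 1000 bp from its start. Shares over all starts and promoter windows come from the RefSeq promoter table. The merging, classing and overlap steps were tested on simulated data. The family genes and gene lists were chosen with earlier results of these data known, and other genes were named where counts at 120 h and 0 h differed by at least 3 or, for likeness, by the 3 highest r. Alternatives covered list length, gene assignment, promoter distance, overlap and the lists used. The software was scipy 1.17.1, matplotlib 3.10.9, pandas 2.3.3 and numpy 2.4.6 under Python 3.11.15.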

Additional observations from a re-analysis of the deposited data

How the results depend on the processing

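With each list reduced to its 23620 widest peaks, the family had 10 peaks at 0 h where it had 26. The 120 h minus 0 h difference of Cebpa was 1 in place of -2. Of the 22 family regions then formed, 1 was lost in place of 7 of 45, where 6.69% of all regions were. Present in all lists was 1 in place of 4, where 15.1% of all regions were. Counting any peak within 100 kb of a start gave 35 peaks at 120 h and 61 at 0 h, in place of 10 and 26. Promoter peaks within 500 bp numbered 4 at 120 h, as within 1000 bp, and 2 at 0 h in place of 5, which turns their direction. With 2 early and 2 late lists, 12 regions were lost, where 27.6% of all regions were. In these cases fewer or more peaks, or fewer lists, entered by construction. The other 21 alternatives of the family's counts, classes and share moved them by at most 1.5 times. Filling single gaps, chosen after the data were seen, gave 10 lost, 3 gained and 5 constant regions. Over all regions this gave 17.0% lost, 2.92% gained and 18.4% constant. No paired analysis was possible because the lists carry no replicate number, and for the same reason no sample could be left out. The unknown depth limits every absence: a site not listed is not shown to be closed.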

Other observations

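Around Cebpb, 26 regions within 100 kb of its start were assigned to neighbouring genes, of which 15 were listed at 120 h and 18 at 0 h. Of these 26, 9 were present in all 10 lists, where 13.8% of all merged regions were. Of the 6 regions of Cebpb itself, 1 was listed at 120 h and 4 at 0 h. Those present in all lists included 4 assigned to A530013C23Rik, at 9209, 65251, 71254 and 76497 bp downstream of the Cebpb start, all but the first intergenic. Tmem189, upstream of Cebpb, had 3 such regions, at its own start and in introns 1 and 2. A region assigned to Ube2v1, at -98274 bp, was gained and was listed from 24 to 120 h.

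Around Cebpe, 21 regions were assigned to neighbouring genes, of which 5 were listed at 120 h and 10 at 0 h. Of these 6 were transient, where 9.65% of all regions were. They included 4 sites assigned to Slc7a8 between -80133 and -97484 bp, listed between 12 and 72 h. These 4 sites were annotated as intergenic but lie within another RefSeq gene model, Rnf212b (54783341 to 54854110). In the introns of Slc7a8, the regions at -42525 and -56404 bp were present in all 10 lists. The window of Cebpd held 2 neighbour regions, both assigned to Mzt2, of which 1 was listed at 120 h and 2 at 0 h. These regions were described after the values were seen, and no link to a C/EBP gene was tested.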
